A study of Mus musculus with 12 samples.

Results

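The E2F transcription factors and the retinoblastoma (pocket) proteins were followed as 10 genes, E2f1, E2f2, E2f3, E2f4, E2f5, E2f7, E2f8, Rb1, Rbl1 and Rbl2, taken by symbol from a table of 57180 genes. All 10 passed the filter on low counts, which left 14362 genes. The RNA came from 2 mouse tumour lines of genotype WT, the bladder cancer line MB49 and KPC, a line of pancreatic ductal adenocarcinoma. In each, 3 libraries labelled Control were set against 3 libraries of cells given 8 Gy of radiation and kept in culture for 48 h; all cells grew in DMEM with serum. How long the controls were cultured is not given, and such a difference and the dose cannot be told apart. The treatment text speaks of senescent cells too, but no library is labelled so. Each line is a single established line, and the labels do not name separate cultures for the libraries, so a p-value here speaks of library spread, which may be technical.

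E2F factors bind DNA, mostly as dimers with a DP protein, and set the level of genes needed for DNA synthesis and division. E2f1, E2f2 and E2f3 encode activators, E2f4 and E2f5 encode factors that act mainly as repressors with a pocket protein, and E2f7 and E2f8 encode atypical repressors that bind without DP or pocket proteins. The pocket proteins pRB (Rb1), p107 (Rbl1) and p130 (Rbl2) hold E2F factors inactive until cyclin-dependent kinases phosphorylate them; Rbl1 is typically a gene of cycling cells, and p130 is known as the main pocket protein of resting cells.

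Libraries held 19006015 to 26337950 counts, with r of 0.979 to 0.992 across genes within a group. KPC control replicate 1 stood apart in its share of 18S ribosomal RNA reads (5.11%, against 0.141 to 0.547% in the other libraries). Levels are given as CPM, counts scaled to library size with TMM factors. Markers of the tissues of origin did not part the lines cleanly. Of the duct markers, Krt19 had 80.7 CPM in the KPC controls but 3.85 CPM in those of MB49, while Spp1 (889 and 993 CPM), Sox9 (130 and 118 CPM) and Muc1 (1.14 and 2.01 CPM) had like or higher levels in MB49. Of the urothelial markers, Upk1a, Upk1b, Upk2 and Upk3a lay under 0.3 CPM in every group, MB49 included. Gata3 had 14.2 CPM in MB49 controls and 16.3 CPM in KPC controls, and Foxa1 had 10.6 and 3.20 CPM. The 15 immune cell markers summed to 0.440 to 1.35 CPM in MB49 controls and 5.18 to 5.52 CPM after 8 Gy, and to 0.125 to 0.412 and 1.69 to 1.94 CPM in KPC. Of these, 6 and 4 were at 0 counts in the MB49 groups and 10 and 11 in the KPC groups, and the pan-leukocyte gene Ptprc had 1 count in all, in irradiated MB49 cells. Single genes made up most of the sums after 8 Gy: Ly6g in MB49 (4.31 CPM, 0.431 in controls) and Csf1r in KPC (1.62 CPM, 0.106 in controls). The 10 fibroblast and endothelial markers summed to 53.2 to 83.4 CPM in MB49 controls and 162 to 218 CPM after 8 Gy, and to 75.9 to 92.4 and 38.0 to 47.4 CPM in KPC. In MB49, Dcn went from 36.1 to 137 CPM and Pdgfra from 11.1 to 39.6 CPM, while Col1a1 went from 13.3 to 5.77 CPM. In KPC, Col1a1 went from 73.2 to 33.8 CPM. The part of immune, fibroblast or endothelial cells in the results was not tested.

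Start site regions of the members were read from RefSeq (GRCm38.p6, another build than the GRCm39 named for the counts), which holds 9 windows of 300 bases for 7 of the 10 genes. No window is listed for E2f4, E2f5 and Rb1. Each window has 250 bases before the start and 50 after. They were searched on both strands for the E2F site, spelled TTTCCCGC, TTTCGCGC, TTTGCCGC or TTTGGCGC, and for the cell cycle homology region (CHR), spelled TTTGAA, through which the DREAM complex of p107 or p130 binds late cell cycle genes. The E2F site was found in 4 of the 7 genes, E2f2, E2f3, E2f7 and Rbl1, against 2.6% of the 27025 genes with a window (2.26% of 32851 windows); the CHR was found in 4, E2f2, E2f3, E2f8 and Rbl2, against 20.2% of genes (17.9% of windows). The 2 motifs share no bases in any member's window. The CHR of E2f2 stands in its second window. The following stretches carry the matches of members whose levels are described next. Capitals mark a match, E2F site or CHR; a match on the other strand reads as the reverse complement (GCGGGAAA or TTCAAA). A match describes the letters only.

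E2f3 (chr13:29986064-29986313, minus strand; CHR 23 and E2F site 11 bases before the start): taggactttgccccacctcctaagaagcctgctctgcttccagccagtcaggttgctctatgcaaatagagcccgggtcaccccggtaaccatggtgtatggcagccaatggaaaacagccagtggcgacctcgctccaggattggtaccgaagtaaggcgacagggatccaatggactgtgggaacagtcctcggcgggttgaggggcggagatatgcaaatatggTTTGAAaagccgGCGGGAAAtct
E2f7 (chr10:110745189-110745438, plus strand; E2F site 198 bases before the start): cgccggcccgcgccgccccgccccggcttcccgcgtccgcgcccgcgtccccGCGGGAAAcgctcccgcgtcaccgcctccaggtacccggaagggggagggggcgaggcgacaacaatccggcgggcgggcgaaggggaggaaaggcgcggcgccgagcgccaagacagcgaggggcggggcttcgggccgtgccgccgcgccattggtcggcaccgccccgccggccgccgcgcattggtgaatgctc
E2f8 (chr7:48881597-48881846, minus strand; CHR 20 bases before the start): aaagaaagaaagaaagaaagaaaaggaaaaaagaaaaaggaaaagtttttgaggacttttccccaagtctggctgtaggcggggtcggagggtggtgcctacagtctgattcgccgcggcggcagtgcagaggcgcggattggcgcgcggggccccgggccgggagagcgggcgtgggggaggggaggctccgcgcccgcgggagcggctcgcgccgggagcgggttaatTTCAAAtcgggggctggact
Rbl1 (chr2:157204535-157204784, minus strand; E2F site 18 bases before the start): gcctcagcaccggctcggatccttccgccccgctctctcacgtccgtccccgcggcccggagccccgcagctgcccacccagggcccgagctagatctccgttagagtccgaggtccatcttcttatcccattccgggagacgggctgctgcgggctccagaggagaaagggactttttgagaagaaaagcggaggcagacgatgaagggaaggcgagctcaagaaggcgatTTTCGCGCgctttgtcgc
E2f2 (chr4:136172294-136172323, plus strand; E2F site beginning at base 40 of the transcript): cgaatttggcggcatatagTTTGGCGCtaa

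Changes are log2 fold changes with their SE, tested in edgeR (quasi-likelihood), and p-values are adjusted over all genes by Benjamini-Hochberg. In untreated cells, KPC had more E2f1, Rb1 and Rbl2, and MB49 had more E2f2, E2f3, E2f7, E2f8 and Rbl1, so 3 of the 10 members were higher in KPC (33.0% of all genes), 5 lower (34.4%) and 2 not called, at an adjusted p under 0.05. That is 8 of 10 called, beside 67.3% of all genes tested, a share near the background. In bulk RNA, fewer cells in a state and less RNA per cell cannot be told apart. E2f1 had 48.8, 56.5 and 58.7 CPM in the KPC libraries and 25.2, 21.3 and 25.4 CPM in those of MB49, a log2 difference of 1.19 ± 0.14 (adjusted p = 5.85e-07). E2f2 went the other way, with 10.1, 11.6 and 11.8 CPM in KPC and 35.0, 29.2 and 29.4 CPM in MB49 (-1.48 ± 0.14, adjusted p = 7.75e-08). In both genes the libraries of the lines lay apart. Rbl2 was higher in KPC by 1.22 ± 0.16 (adjusted p = 3.39e-06) and Rb1 by 0.70 ± 0.15 (adjusted p = 0.000561), with no overlap. E2f7 was lower in KPC by 0.70 ± 0.16 on the log2 scale (adjusted p = 0.00102). The lower levels of E2f3, E2f8 and Rbl1 in KPC were smaller (-0.42, -0.53 and -0.41, adjusted p = 0.00928, 0.0105 and 0.0150) and the E2f8 libraries overlapped. Without MB49 control replicate 1 the calls of E2f8 and Rbl1 were lost (adjusted p = 0.0626 and 0.0503), without MB49 control replicate 2 those of E2f3 and Rbl1 (0.0568 and 0.0696), and without KPC control replicate 2 that of E2f8 (0.0650). E2f4 and E2f5 did not pass the test (0.14, 95% interval -0.10 to 0.38, and -0.04, interval -0.39 to 0.32).

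**Figure D1:**
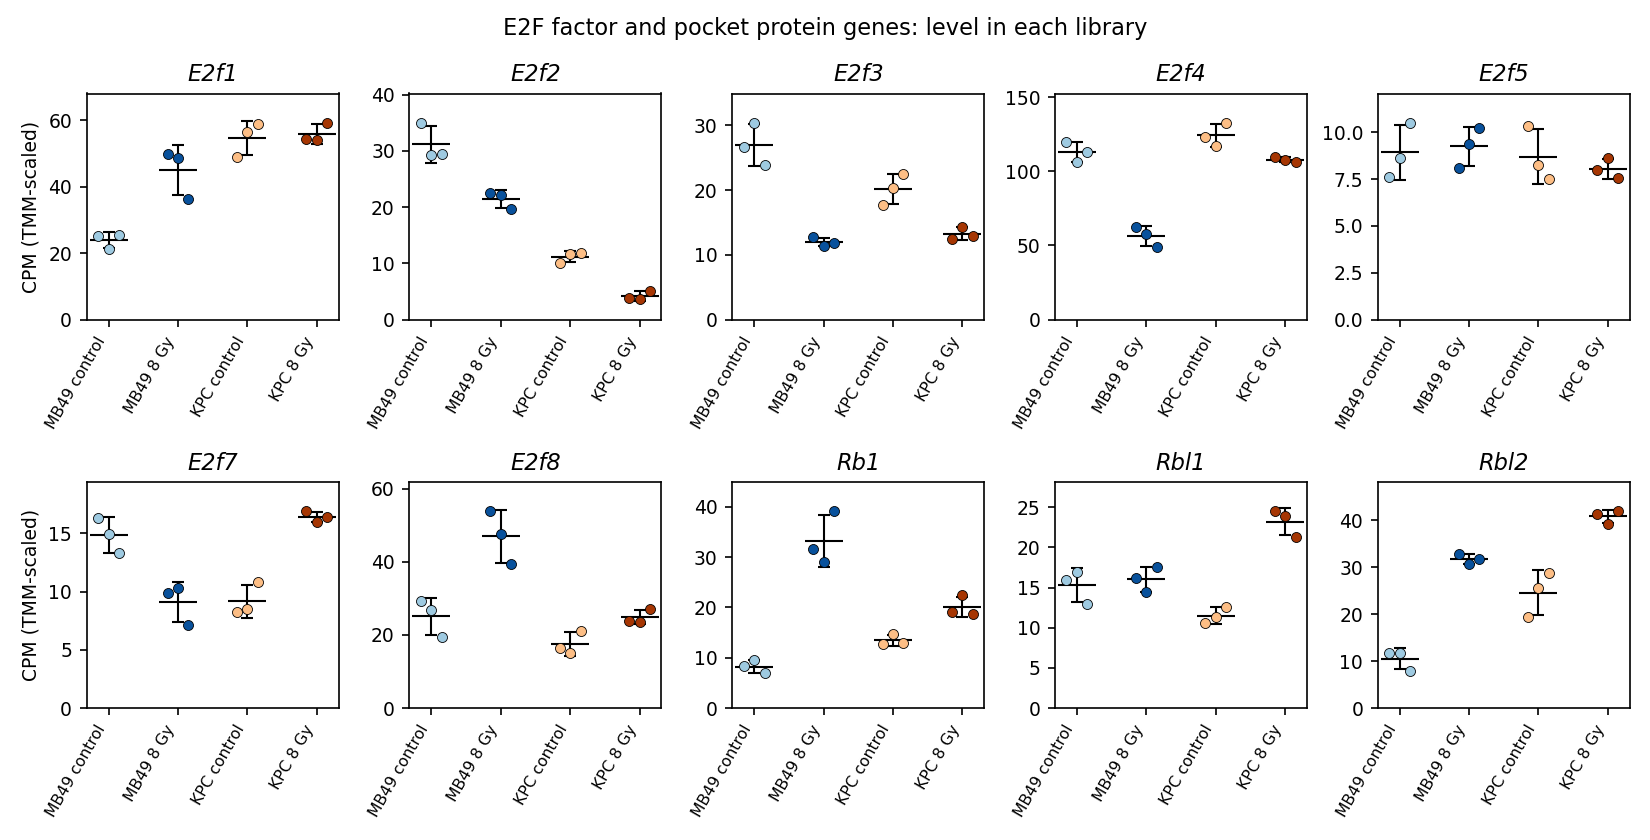
CPM (vertical axis, from 0, with its own range in each panel) of each of the 10 genes in the 12 libraries, by group; points are libraries, horizontal lines the mean and error bars the SD of 3 libraries. E2f4 has the highest level and falls from 113 to 56.3 CPM in MB49, while Rb1 and Rbl2 rise in both lines.

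Per length (RPKM, CPM divided by the deposited gene length in kilobases), E2f4 stood first in every group. In MB49 controls it was at 56.6 ± 3.49 RPKM (SD, n = 3), and E2f1 followed with 8.78 ± 0.839 RPKM. The range of E2f8 (5.28 to 7.92 RPKM) overlapped those of E2f1 (7.81 to 9.29) and E2f2 (6.16 to 7.38), and E2f3 (4.68 to 5.95) overlapped E2f5 (4.29 to 5.90). E2f7 (3.72 to 4.58 RPKM) overlapped E2f5 but lay above Rbl1 (2.66 to 3.48 RPKM). The pocket protein genes came last, with Rbl2 (1.61 to 2.40 RPKM) and Rb1 (1.49 to 2.03 RPKM) overlapping below Rbl1. In KPC controls the order after E2f4 (62.4 ± 3.94 RPKM) and E2f1 (20.0 ± 1.91 RPKM) was Rbl2 (4.99 ± 0.972), E2f5 (4.89 ± 0.831), E2f8 (4.74 ± 0.889) and E2f3 (3.95 ± 0.462). Those 4 genes had overlapping ranges. Rb1 (2.88), E2f7 (2.57), Rbl1 (2.364) and E2f2 (2.363 RPKM) came last, each overlapping its neighbour. After 8 Gy the order in MB49 was E2f4 (28.3 RPKM), E2f1 (16.5), E2f8 (12.7), Rb1 (7.14), Rbl2 (6.46), E2f5 (5.20), E2f2 (4.53), Rbl1 (3.30), E2f7 (2.56) and E2f3 (2.35 RPKM). Rb1 had thus moved from the last place to the fourth, and E2f3 from the fifth to the last. The pairs E2f1 and E2f8, Rb1 and Rbl2, E2f5 and E2f2, and E2f7 and E2f3 overlapped. In irradiated KPC cells E2f4 (54.1 RPKM), E2f1 (20.5), Rbl2 (8.30) and E2f8 (6.72) lay apart from each other, Rbl1 (4.77), E2f7 (4.61), E2f5 (4.53) and Rb1 (4.31) overlapped, and E2f3 (2.60) and E2f2 (0.887 RPKM) came last.

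After 8 Gy, MB49 cells had about the same number of members up as down: 4 rose (E2f1, E2f8, Rb1 and Rbl2), 4 fell (E2f2, E2f3, E2f4 and E2f7) and 2 were not called. The 8 of 10 called stand beside 66.9% of all genes tested, 35.3% higher and 31.6% lower, so the count itself does not set the family apart. The median over the members was 0.06 on the log2 scale, against 0.04 over all genes.

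The largest rise in MB49 was that of Rb1, the retinoblastoma gene. It had 8.28, 9.46 and 6.94 CPM in controls and 31.6, 29.0 and 39.0 CPM after 8 Gy (2.01 ± 0.15, a 4.03-fold rise, adjusted p = 4.23e-09). Rbl2, which encodes p130, had 11.7, 11.8 and 7.94 CPM in controls and 32.8, 30.8 and 31.9 CPM after 8 Gy (1.60 ± 0.16, 3.02-fold, adjusted p = 1.65e-07). In both genes every irradiated library lay above every control. Rbl1, the third pocket protein gene, did not follow: 16.0, 16.9 and 12.9 CPM in controls against 16.2, 14.4 and 17.5 CPM, overlapping (0.07, interval -0.22 to 0.36, adjusted p = 0.676). Among the activators, E2f1 rose from 25.2, 21.3 and 25.4 to 49.9, 48.8 and 36.4 CPM (0.91 ± 0.14, 1.88-fold, adjusted p = 1.47e-05). E2f3 fell from 26.6, 30.3 and 23.9 to 12.7, 11.4 and 11.8 CPM, a fall by 1.17 ± 0.14 on the log2 scale, or 2.25-fold (adjusted p = 7.88e-07). E2f2 fell from 35.0, 29.2 and 29.4 to 22.5, 22.2 and 19.6 CPM (-0.54 ± 0.14, 1.45-fold, adjusted p = 0.00264). The 3 activator genes thus changed in unequal directions, each with no overlap between its groups. E2f4 fell from 119.9, 106.0 and 112.9 to 62.4, 57.6 and 49.0 CPM (2.00-fold, 95% interval of the log2 change -1.24 to -0.76, adjusted p = 6.30e-07), again without overlap. E2f5, the other classical repressor, had 7.63 to 10.5 CPM in controls and 8.11 to 10.2 CPM after 8 Gy (0.05, interval -0.30 to 0.41). The atypical pair split: E2f8 rose from 29.2, 26.8 and 19.5 to 53.8, 47.6 and 39.5 CPM (0.90 ± 0.17, 1.86-fold, adjusted p = 0.000139), and E2f7 fell from 16.3, 14.9 and 13.3 to 9.90, 10.3 and 7.14 CPM (-0.71 ± 0.16, 1.63-fold, adjusted p = 0.00102). Every control library was above every irradiated one for E2f7 and below every one for E2f8.

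Long genes had lower changes than short genes in MB49 as a whole, with a median of 0.64 in the shortest octile of genes and -0.28 in the longest. The members E2f2, E2f3, Rb1, Rbl1 and Rbl2 stand in 1 octile of this scale (median length 4657 bases, median change -0.17), and their changes ran from -1.17 for E2f3 to 2.01 for Rb1. Whether counting used the strand is not stated, and exons of some members overlap genes on the opposite strand. Rbl2 shares 892 exon bases with Gm45464, which had 2.00 to 3.19 counts per group, and 693 with Aktip, whose counts fell from 1260 to 810 in MB49 and from 2253 to 1084 in KPC (sums over 3 libraries). Rb1 shares 408 with Lpar6 and 488 with Rcbtb2, which went from 69.0 to 24.0 and from 934 to 465 counts in MB49, and from 76.0 to 9.0 and from 569 to 652 in KPC, and E2f8 shares 610 with Gm2788, which had 394 counts in MB49 controls, 558 after 8 Gy, and 117 and 74.5 in KPC. The sums of these overlapping genes are not scaled between libraries. TMM factors were 1.11 to 1.18 in MB49 controls and 0.896 to 0.976 after 8 Gy. In KPC they were 1.07 to 1.14 and 0.829 to 0.876. With these factors and the library totals, falls in CPM are smaller and rises larger than in the sums. Counts of Rbl2 were not whole numbers in 11 of 12 libraries and those of E2f8 in 6. Reads of each pair cannot be told apart here.

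KPC cells after 8 Gy had higher levels of all 3 pocket protein genes and of both atypical E2F genes, and lower E2f2 and E2f3. Of the 10 members, 5 rose (31.3% of all genes), 2 fell (32.0%) and 3 were not called, 7 called in all beside 63.3% of the genes tested. The median over the members was 0.27, against -0.01 over all genes. Rbl1 rose most, from 10.5, 11.4 and 12.6 to 24.5, 23.9 and 21.3 CPM (1.01 ± 0.14, 2.02-fold, adjusted p = 6.71e-06). Rbl2 rose from 19.3, 25.6 and 28.8 to 41.4, 39.2 and 41.9 CPM (0.73 ± 0.16, 1.66-fold, adjusted p = 0.000553). Rb1 rose from 12.7, 14.7 and 12.9 to 19.1, 22.4 and 18.7 CPM (0.58 ± 0.15, 1.50-fold, adjusted p = 0.00256). None of these overlapped between groups. E2f7 rose from 8.24, 8.50 and 10.8 to 16.9, 16.0 and 16.4 CPM (0.84 ± 0.16, 1.79-fold, adjusted p = 0.000220). E2f8 rose less, from 16.3, 14.97 and 21.2 to 23.9, 23.6 and 27.0 CPM (0.50 ± 0.17, adjusted p = 0.0152). This last call was lost without KPC control replicate 2 (adjusted p = 0.0847) or KPC 8 Gy replicate 3 (0.0604), although the groups did not overlap. E2f2 fell from 10.1, 11.6 and 11.8 to 3.77, 3.69 and 5.15 CPM (-1.42 ± 0.16, 2.68-fold, adjusted p = 4.85e-07), the largest change of a member in KPC. E2f3 fell from 17.7, 20.2 and 22.4 to 12.5, 14.4 and 12.9 CPM (-0.60 ± 0.13, 1.52-fold, adjusted p = 0.000850). Both lay apart from their controls. E2f1 had 48.8 to 58.7 CPM in controls and 54.1 to 59.2 CPM after 8 Gy, overlapping (0.03, interval -0.25 to 0.31, adjusted p = 0.866). E2f4 had 117 to 133 CPM and 106 to 110 CPM (-0.20, interval -0.44 to 0.03, adjusted p = 0.124), apart but not past the test, and E2f5 overlapped (-0.11, interval -0.47 to 0.25, adjusted p = 0.601).

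Scaling by library totals in place of TMM moved the median change of all genes in KPC from -0.01 to -0.39 and in MB49 from 0.04 to -0.23. The share of called genes that were higher then went from 49.4 to 31.8% in KPC and from 52.7 to 39.5% in MB49. With that scaling 2 members were called higher and 5 lower in KPC. E2f1 (-0.36, adjusted p = 0.0187), E2f4 (-0.59, adjusted p = 9.14e-05) and E2f5 (-0.49, adjusted p = 0.0224) were then called lower, and Rb1 (0.20, adjusted p = 0.321), Rbl2 (0.34, adjusted p = 0.0886) and E2f8 (0.12, adjusted p = 0.571) were not called. E2f7, Rbl1, E2f2 and E2f3 kept their calls in KPC, and the 8 calls in MB49 also held.

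**Figure D2:**
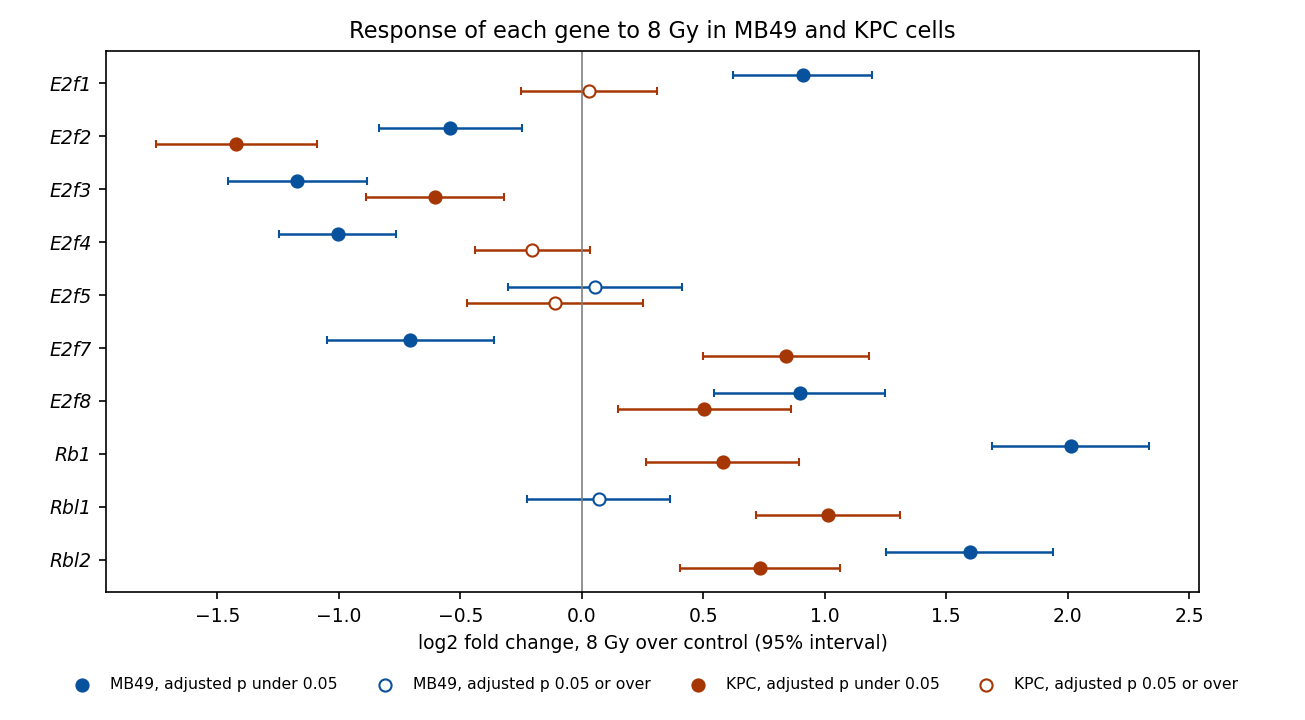
Log2 fold change after 8 Gy (horizontal axis) of each gene in MB49 (blue) and KPC (brown) with 95% intervals; filled points passed the test at an adjusted p under 0.05. E2f7 stands at -0.71 in MB49 and 0.84 in KPC, and Rb1 at 2.01 and 0.58.

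The responses of the lines were compared in the same fit, as KPC change minus MB49 change. Of the 10 members, 8 differed, 4 with a higher value in KPC (20.9% of all genes) and 4 with a lower one (22.0%), beside 42.9% of the genes tested. E2f7 was the member that rose in KPC and fell in MB49, with a difference of 1.55 ± 0.23 (adjusted p = 5.00e-05). Rb1 (-1.43 ± 0.21, adjusted p = 4.72e-05) and Rbl2 (-0.86 ± 0.22, adjusted p = 0.00499) rose in both lines, and more in MB49. Rbl1 responded more in KPC, by 0.94 ± 0.20 (adjusted p = 0.00102). E2f1 differed by -0.88 ± 0.19 (adjusted p = 0.00136), and its level in irradiated MB49 cells overlapped that of KPC controls (36.4 to 49.9 against 48.8 to 58.7 CPM). E2f2 fell more in KPC (-0.88 ± 0.21, adjusted p = 0.00277) and E2f4 more in MB49 (0.80 ± 0.16, adjusted p = 0.000722). The larger fall of E2f3 in MB49 (0.57 ± 0.19, adjusted p = 0.0228) was not called without MB49 control replicate 2, MB49 8 Gy replicate 2 or KPC 8 Gy replicate 2 (adjusted p = 0.0638, 0.0529 and 0.0636), nor with library totals (0.48, adjusted p = 0.0772). For E2f8 the difference was -0.39 (interval -0.89 to 0.11, adjusted p = 0.194) and for E2f5 it was -0.16 (interval -0.67 to 0.35, adjusted p = 0.624).

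The make-up of each class is described per length, without a test. Of the summed RPKM of the 3 activator genes, E2f1 took 39.2 to 46.1% in MB49 controls and 67.4 to 72.0% after 8 Gy. In KPC it took 75.7 to 76.3% and then 84.6 to 86.0%, so its share was higher after 8 Gy in every library of both lines. E2f2 took 30.7 to 33.8% in MB49 controls and 3.33 to 4.30% in irradiated KPC cells, its highest and lowest shares. The summed level of the activators itself moved little, from 20.6 ± 1.03 to 23.4 ± 3.13 RPKM in MB49 and from 26.3 ± 2.56 to 23.9 ± 1.17 RPKM in KPC, with overlapping ranges. E2f4 made up 59.5 to 61.8% of the summed RPKM of the 7 E2F genes in MB49 controls and 38.7 to 39.8% after 8 Gy. In KPC the shares of E2f4 were 60.6 to 63.2% and 56.3 to 58.6%. The atypical genes E2f7 and E2f8 went from 9.82 to 12.8% of this sum to 20.2 to 22.0% in MB49, and from 6.65 to 8.13% to 11.7 to 12.6% in KPC.

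The summed pocket protein genes went from 7.04 ± 1.13 to 16.9 ± 1.51 RPKM in MB49 and from 10.2 ± 1.24 to 17.4 ± 0.412 RPKM in KPC, without overlap. These sums carry the TMM scaling. With library totals the edgeR calls of Rb1 and Rbl2 in KPC were lost (adjusted p = 0.321 and 0.0886). Rbl1 was the first of the 3 in MB49 controls, with 44.0 to 46.1% of their sum, and the last after 8 Gy, with 19.2 to 19.9%. Rb1 went from 23.9 to 25.9% to 40.4 to 45.4% there. The log2 ratio of Rbl1 to Rbl2 went from 0.58 ± 0.13 in MB49 controls to -0.97 ± 0.12 after 8 Gy. KPC controls already stood at -1.06 ± 0.17, and irradiated KPC cells at -0.80 ± 0.14, so Rbl2 exceeded Rbl1 in every group except MB49 controls. In KPC, Rbl2 took 44.5 to 52.2% of the pocket sum before and 45.0 to 50.4% after 8 Gy.

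**Figure D3:**
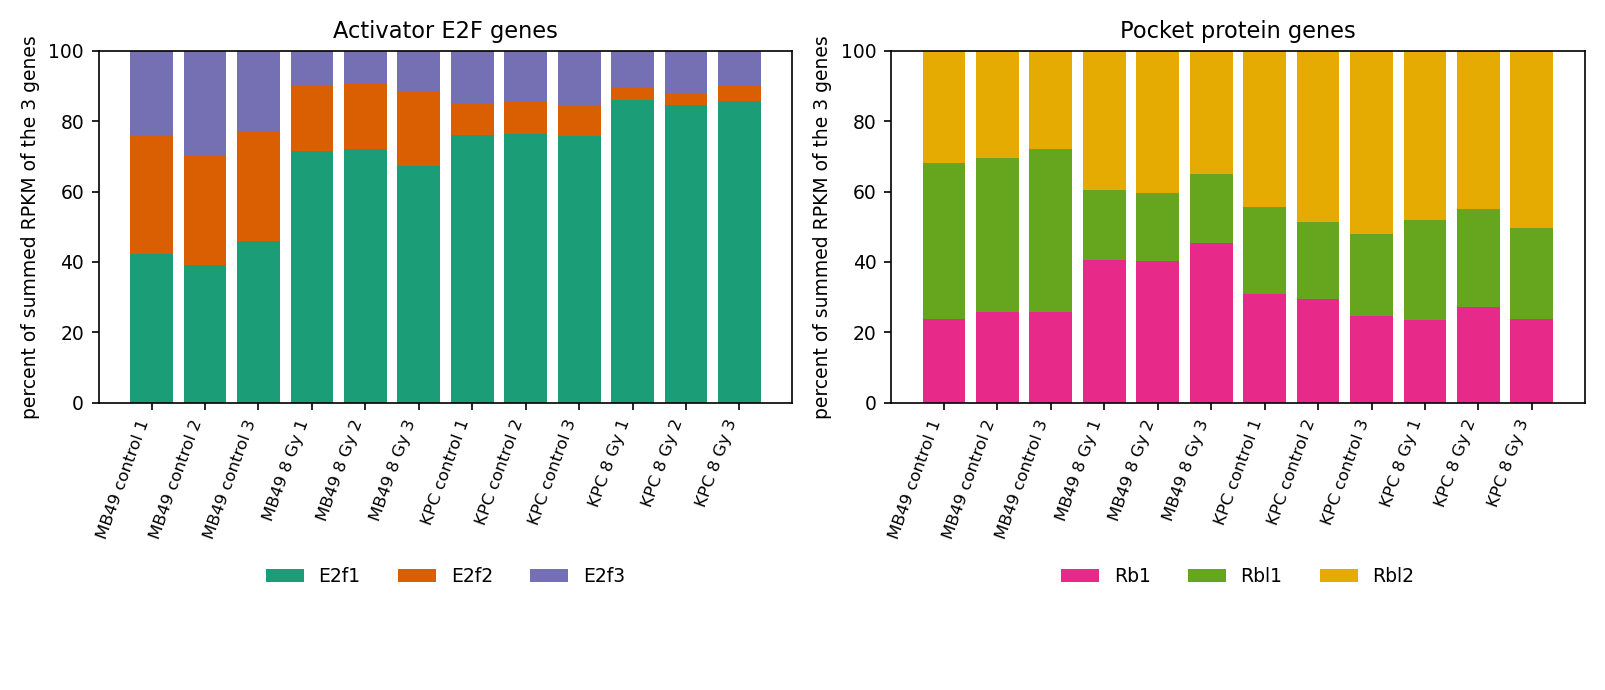
Share of each gene (percent of the summed RPKM of the 3 genes, vertical axis from 0 to 100) in each of the 12 libraries, for the activator genes (left) and the pocket protein genes (right). E2f1 takes 39.2 to 46.1% of the activators in MB49 controls and at least 67.4% in the other libraries, and Rbl1 drops to 19.2 to 19.9% of the pocket genes in irradiated MB49 cells.

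The partners of these factors also differed between lines. E2f6, a pocket-independent repressor of the same family that is not among the 10 genes, had 6 counts over the 3 MB49 control libraries and 0 in irradiated MB49 cells, against 2764 and 1310 counts in KPC. The ratio of KPC to MB49 controls was 477 with a 95% counting interval of 219 to 1300, and the level in irradiated KPC cells was at least 428-fold higher than in irradiated MB49 cells with a floor of 3 counts per group in place of 0. In KPC it fell from 35.2, 36.0 and 39.1 to 21.0, 22.1 and 21.6 CPM (-0.77 ± 0.17, adjusted p = 0.00107). Tfdp1, which encodes the main DP partner, fell in both lines (-0.59 ± 0.12 and -0.46 ± 0.12, adjusted p = 0.000246 and 0.00248). Foxm1 and Mybl2, transcription factor genes that join the MuvB core to switch on mitotic genes, fell in MB49 and rose in KPC. Foxm1 went from 191 ± 27.7 to 62.2 ± 12.5 CPM in MB49 and from 71.7 ± 10.5 to 213 ± 19.7 CPM in KPC, a difference of 3.19 ± 0.23 (adjusted p = 1.58e-08). Mybl2 differed by 1.33 ± 0.21 (adjusted p = 0.000100). The MuvB subunit gene Lin37 rose in both, by 1.76 ± 0.21 in MB49 and 0.75 ± 0.19 in KPC (adjusted p = 8.94e-07 and 0.00260). With library totals the KPC calls of Lin37 and Mybl2 were lost (adjusted p = 0.0982 and 0.247). Of the 11 genes of this group 3 rose and 4 fell in MB49, and 4 rose and 3 fell in KPC (2 and 7, and 1 and 6, with library totals), 7 called in each line beside 66.9 and 63.3% of all genes.

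Upstream of the pocket proteins stand the cyclins, their kinases and the kinase inhibitors. Of 17 tested genes of 19, 7 rose and 3 fell in MB49 (median 0.26), and 7 rose and 5 fell in KPC (median 0.04), but 4 and 4, and 4 and 8, with library totals. The 10 and 12 of 17 called are near the 66.9 and 63.3% of all genes. Cdkn2d, which encodes an inhibitor of Cdk4 and Cdk6, rose from 14.8 ± 2.65 to 83.4 ± 6.99 CPM in MB49 and from 24.5 ± 2.61 to 76.3 ± 1.76 CPM in KPC (2.50 ± 0.14 and 1.64 ± 0.13, adjusted p = 8.25e-11 and 1.26e-08). The D-type cyclin gene Ccnd2 and the kinase gene Cdk4 fell in both lines, Ccnd2 by 1.73 ± 0.12 in MB49 (adjusted p = 8.83e-10) and Cdk4 by 1.13 ± 0.12 in KPC (adjusted p = 2.82e-07) on the log2 scale. The cyclin E1 gene Ccne1 rose in KPC from 19.6 ± 0.539 to 72.6 ± 6.20 CPM (1.89 ± 0.13, adjusted p = 8.04e-10), and its response exceeded that of MB49 by 1.63 ± 0.18 (adjusted p = 2.30e-06). The cyclin A2 gene Ccna2 went from 10.5 ± 2.07 to 91.2 ± 7.33 CPM in KPC (3.12 ± 0.14, adjusted p = 6.56e-12). Among 12 corepressor genes of pocket proteins, 1 rose and 3 fell in MB49, and 4 rose and 4 fell in KPC (1 and 9, and 1 and 6, with library totals). The 4 and 8 of 12 called stand beside 66.9 and 63.3% of all genes. Arid4a, which encodes a pRB-binding protein, fell in both (-1.60 ± 0.20 and -0.96 ± 0.19, adjusted p = 1.64e-06 and 0.000322). Sin3b, a corepressor scaffold gene, rose in MB49 (0.86 ± 0.11, adjusted p = 3.26e-06).

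Downstream, 40 known E2F targets of the G1/S transition and 26 late cell cycle genes were counted. Of the G1/S targets, 15 rose and 5 fell in MB49 (median 0.09, against 0.04 over all genes), but 9 rose and 16 fell when libraries were scaled by their totals. In KPC 24 rose and 4 fell (median 0.45, against -0.01), or 16 and 6 with library totals. With TMM, 37.5% were higher in MB49, beside 35.3% of all genes, and 60% in KPC, beside 31.3%. The 20 and 28 of 40 called stand beside 66.9 and 63.3% of all genes. The replication genes Lig1 (1.81 ± 0.12) and Mcm4 (1.53 ± 0.12) rose in KPC, with adjusted p = 6.91e-10 and 4.93e-09. Fen1, which encodes a flap endonuclease, fell in both lines (-0.91 ± 0.14 and -1.15 ± 0.13, adjusted p = 1.51e-05 and 1.02e-06). The thymidine kinase gene Tk1 fell in MB49 from 160 ± 10.6 to 56.8 ± 2.23 CPM (-1.50 ± 0.12, adjusted p = 7.88e-09) and stood at 37.0 ± 5.49 and 38.1 ± 2.47 CPM in KPC. The late genes split the lines: 13 rose and 5 fell in MB49 (median 0.30), and 25 of 26 rose in KPC (median 1.95). Cdkn3 was the exception in KPC (adjusted p = 0.971). The 18 and 25 of 26 called stand beside 66.9 and 63.3% of all genes, and the 50 and 96.2% higher beside 35.3 and 31.3%. With library totals 7 rose and 6 fell in MB49. Without KPC control replicate 1 the MB49 counts were 10 and 6, and those of KPC were 25 and 0. The response was larger in KPC for 25 of the 26, beside 20.9% of all genes, among them the mitotic kinase genes Plk1 (3.16 ± 0.20, adjusted p = 3.96e-09) and Aurka (2.74 ± 0.17, adjusted p = 2.50e-09). In the controls 24 of these genes were lower in KPC than in MB49, beside 34.4% of all genes. The proliferation marker gene Mki67 stood lower in untreated KPC than in untreated MB49 cells (11.2 ± 0.345 against 56.2 ± 16.1 CPM, -2.33 ± 0.24, adjusted p = 7.55e-07). Of the genes with a RefSeq window, the E2F site stood in 13 of 33 G1/S targets and 1 of 22 late genes, and the CHR in 3 of 33 and 16 of 22.

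**Figure D4:**
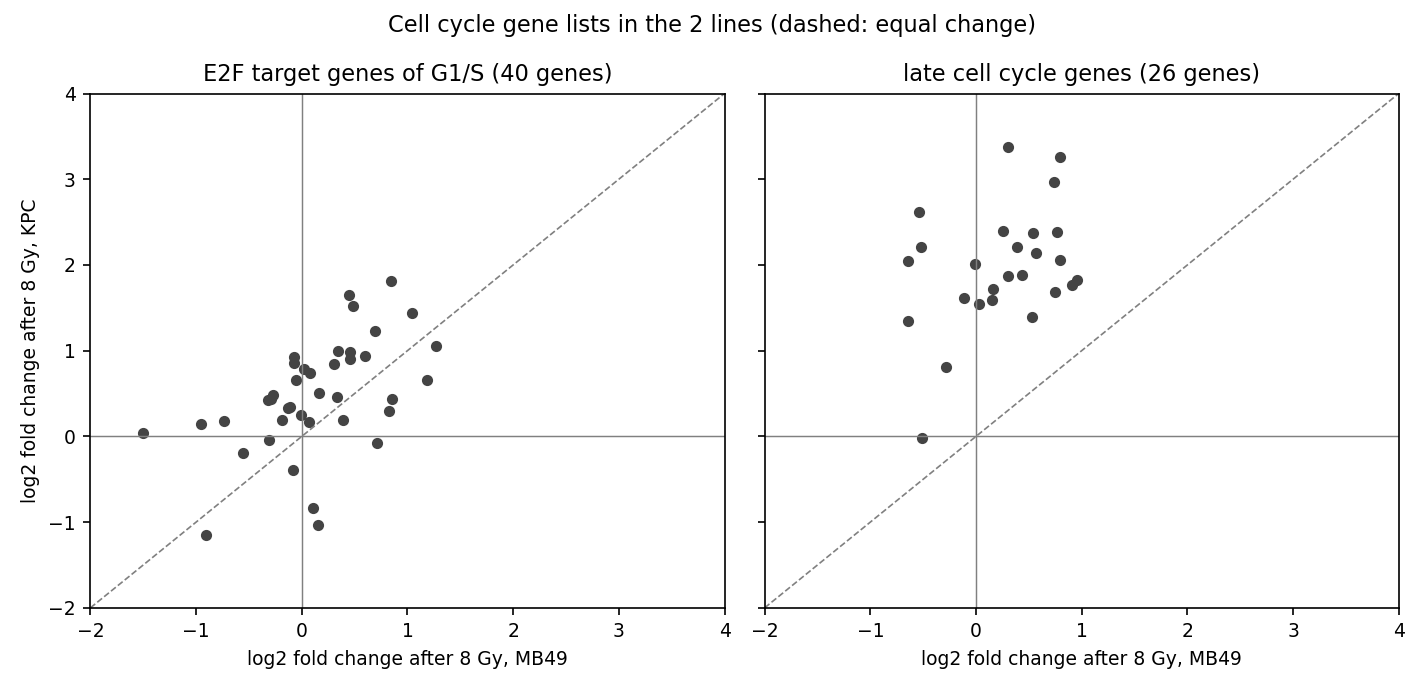
Log2 fold change after 8 Gy in MB49 (horizontal axis) against KPC (vertical axis) for the 40 G1/S targets of E2F (left) and the 26 late cell cycle genes (right); each point is a gene and the dashed line marks equal change. All late genes lie above the dashed line, with a median of 1.95 in KPC and 0.30 in MB49.

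Across the 12 libraries, the genes whose log2 CPM was most like that of a member were taken by Pearson's r for the member of each class with the highest mean RPKM over those libraries. They were Palm (0.988), Ltbp4 (0.987) and Zbtb7b (0.983) for E2f1, and Eral1 (0.991) and Rnf145 (0.991) for E2f4. For E2f8 they were Tnfrsf10b (0.976), Tpp1 (0.971) and Crybg1 (0.968), and for Rbl2 Klhl42 (0.991), Ankrd50 (0.981) and Ptpn14 (0.979). These values are a description over 4 groups of 3 libraries and carry the differences between lines and doses.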

How the data were processed

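RNA was extracted with TRIzol and libraries were made with a stranded mRNA kit, per the labels' protocols. Values in the deposited table are estimated counts of each gene, with no scaling between libraries by the authors as far as the values show. The submitters' processing notes name fastp, HISAT2, StringTie and GRCm39, and name no counting tool. The authors' group means were not used. The deposited gene length, another column of that table, gave RPKM. Rows with no symbol numbered 525.

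Counts were rounded, filtered with edgeR's filterByExpr by group and scaled by TMM (factors 0.829 to 1.18). All 12 libraries entered a robust quasi-likelihood model of the 4 groups (8 residual degrees of freedom, common biological coefficient of variation 0.150). Tests were 2-sided with Benjamini-Hochberg adjustment over 14362 genes, called under 0.05. The steps were tried on simulated data in which few genes changed, evenly up and down. That trial cannot test the scaling where most genes change. Each SE was taken as the size of the log2 change divided by the root of F, and 95% intervals use the moderated degrees of freedom. The members and lists were chosen with earlier results of these data known. The text names members and, of a list's called genes with 1 CPM or more, those among the 3 largest rises or 3 largest falls of a comparison; Cdkn3, the one late gene not called in KPC, and values of a named gene in other comparisons were chosen after their values were seen. Replicate numbers showed no clear pairing: deviations of same-numbered libraries correlated at -0.18 to 0.17 in MB49 and -0.12 to 0.02 in KPC. Those of differently numbered libraries of a line correlated at -0.21 to 0.12 and -0.12 to 0.13. With 3 libraries a group this cannot exclude a pairing. Of the 3 genes most like each of 4 members, 1 is not reported here. Genes that overlap members were found in GENCODE M21. Alternatives were RLE factors, library totals, DESeq2, no filter, other sets of samples, a replicate block, removal of Rn18s-rs5 and leaving out each library. Software was R 4.3.3, edgeR 4.0.16, limma 3.58.1 and DESeq2 1.42.0.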

Additional observations from a re-analysis of the deposited data

Results flagged for a closer look

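For 8 members the response to 8 Gy differed between the lines in the test of the difference itself, as KPC minus MB49 on the log2 scale. E2f7 (1.55), Rbl1 (0.94), E2f4 (0.80) and E2f3 (0.57) had the higher value in KPC. Rb1 (-1.43), E2f2 (-0.88), E2f1 (-0.88) and Rbl2 (-0.86) had the higher value in MB49. Of these 8, E2f7 was called in opposite directions in the 2 lines.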

How the results depend on the processing

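There were 600 values of a member in a comparison under an alternative. Of these, 580 kept their side of the threshold and 17 were no longer called. Another 2 were newly called with the same sign, and 1 was newly called with its sign changed. The called values among the 580 kept their direction. Some values that were not called changed sign, such as Rbl1 in MB49 (0.07 with TMM, -0.22 with library totals). The newly called value with its sign changed was E2f1 in KPC, at 0.03 with TMM (not called) and -0.36 with library totals. Library totals gave 2 members higher and 5 lower in KPC, against 5 and 2. For controls, 5 members were lower in KPC; leaving out 1 library gave 3 to 5. With a replicate block, 9190 genes were called in MB49 and 8723 in KPC, against 9606 and 9086, and no member's call changed. With the block and only the control libraries, an alternative chosen after seeing the data, 2 members were lower in KPC, as E2f3, E2f8 and Rbl1 were not called (adjusted p = 0.0611, 0.0757 and 0.0900). Without the block, the control libraries alone kept 5 members lower (0.0224, 0.0230 and 0.0332 for these genes). The precision is limited by 3 libraries a group and, for members, by counts as low as 76 in a library.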
